A study of Mus musculus with 4 samples.

Results

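The collagen chains are the genes whose products wind into the helical trimers of the collagen superfamily. They were taken as every probe set of the value table with a mapped symbol made of Col, a number, the letter a and a number, read on all 4 arrays. This gave 42 genes with 1 probe set each, out of 19505 named genes. By the kind of assembly they form, 11 were fibrillar chains, 6 were basement membrane chains of type IV, 6 were beaded filament chains of type VI and 19 were other collagens. Col7a1 and Col12a1 were not analysed here.

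The hearts came from ICR (Jcl:ICR) mice, an outbred stock, and the series is titled for the effect of Tbx6, a T-box transcription factor of early mesoderm. At postnatal day 1 each pup received 5 μl under the dorsal skin, either a viral vector with Tbx6 or phosphate-buffered saline (PBS), while other label fields place the introduction in the heart. Hearts were taken 7 or 30 days later, and 1 array was read for each of the 4 groups: PBS at day 7, Tbx6 at day 7, PBS at day 30 and Tbx6 at day 30. The control carried no vector, so a difference between injections holds the vector together with the gene, and the promoter of the vector, the sex of the animals and the number of hearts in each RNA are not given.

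Collagens are made as procollagen chains in the endoplasmic reticulum, hydroxylated on proline and lysine, folded by chaperones and secreted. Fibrillar collagens are then trimmed, assembled into fibrils and crosslinked, which gives the heart wall its tensile strength. Type IV chains form the network of the basement membrane around cardiomyocytes and vessels, and type VI chains form beaded filaments that lie between cells and fibrils. In the heart, fibroblasts are the main source of fibrillar collagen, and the matrix is laid down actively around birth.

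All values below are on a log2 scale, so 1 unit is a 2-fold change, and a level is compared only with the same probe set on other arrays. Over the 9753 genes that passed a filter on low values, the correlation across genes was 0.985 between the day 7 arrays, 0.989 between the day 30 arrays and 0.935 to 0.941 across the days. Readings no higher than the brightest background probe set on the same array (5.77 to 6.05) are called at background, and a difference that rests on one is given as a bound, with that reading raised to the background. The Tbx6 probe set read 3.70 and 4.14 at day 7 and 3.57 and 3.66 at day 30 in PBS and Tbx6 hearts, at background on every array, so it gave no check of the injection labels. The 2 days were compared in an additive limma model of day and injection, which has 1 residual degree of freedom and takes most of its estimate of spread from the other genes. That residual also holds any injection difference that changes between the days. The arrays are not stated to be separate animals, so a p-value does not measure the spread between animals. In whole hearts, fewer cells of a type and less RNA per cell cannot be told apart.

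At day 30, collagen messages stood lower than at day 7, and the fibrillar chains differed most. Of the 25 chains that passed the filter on low values, 12 fell at an adjusted p under 0.05 (limma, Benjamini-Hochberg over all 9753 genes tested), 0 rose and 13 did not pass. Over all genes tested, 12.1% fell and 14.2% rose. The median day difference of the 25 chains was -0.74, against -0.02 for all genes tested. The arrays of the 2 days did not overlap, with day 30 lower, for 19 of the 25 chains and for 33.5% of all genes tested. These 19 include Col4a5 and Col20a1, whose nearest day 7 and day 30 readings almost met (5.93 and 5.90, 6.15 and 6.14). They also include Col13a1, which was above background on 1 array. A chain that passed the filter only through its day 7 readings had to differ, so these counts describe the tested chains and not all 42. With injection left out of the model and 1 array left out, fewer chains were called as fallen, whichever array was dropped. Each of these fits leaves 1 array for a day. The share of all genes called in them is not given here, so the drop cannot be set beside that of all genes.

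**Figure D1:**
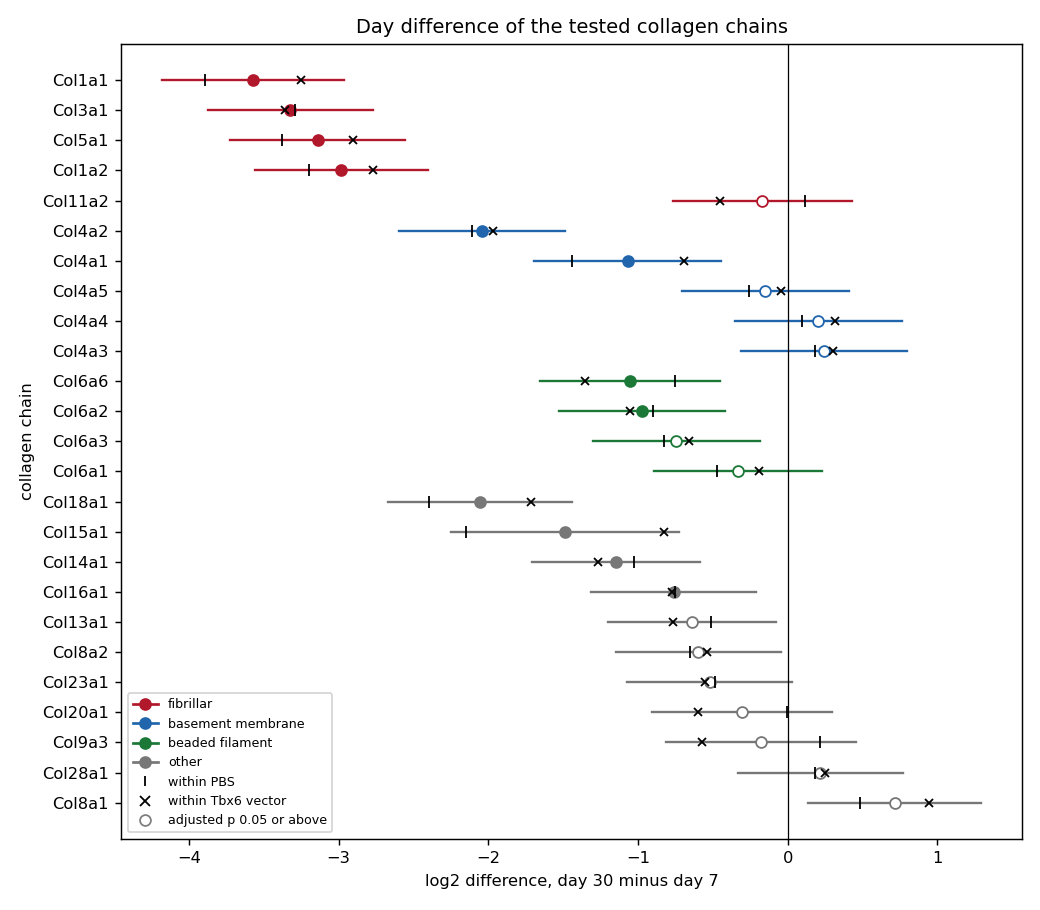
Day difference (day 30 minus day 7, log2) of the 25 tested collagen chains, with circles for the limma estimate, lines for its 95% confidence interval, bars and crosses for the difference within PBS and within Tbx6 hearts, and filled circles for an adjusted p under 0.05. The 4 fibrillar chains that fell lie between -3.57 and -2.98, apart from the other fallen chains, which lie between -2.06 and -0.76; the plotted differences are not corrected for readings at background.

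The fibrillar chains that fell carry the largest differences in the family, and promoters of 3 of them are shown because these genes fell together. The promoter of Col1a1 is not shown. Sequences are the 250 bases before the annotated start from RefSeq (GRCm38.p6), 5′ to 3′ on the gene's strand, with matches to 3 promoter motifs in capitals: the CCAAT box (CCAAT), the GC box (GGGCGG) and the TATA box (TATAAA), each searched on both strands. Col3a1 lies at chr1:45311288-45311537 on the plus strand, Col5a1 at chr2:27886175-27886424 on the plus strand and Col1a2 at chr6:4505368-4505617 on the plus strand.
Col3a1: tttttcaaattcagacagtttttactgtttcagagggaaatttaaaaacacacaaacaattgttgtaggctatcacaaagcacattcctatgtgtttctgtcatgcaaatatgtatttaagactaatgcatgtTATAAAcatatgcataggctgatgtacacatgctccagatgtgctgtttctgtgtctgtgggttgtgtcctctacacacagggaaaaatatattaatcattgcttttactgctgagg
Col5a1: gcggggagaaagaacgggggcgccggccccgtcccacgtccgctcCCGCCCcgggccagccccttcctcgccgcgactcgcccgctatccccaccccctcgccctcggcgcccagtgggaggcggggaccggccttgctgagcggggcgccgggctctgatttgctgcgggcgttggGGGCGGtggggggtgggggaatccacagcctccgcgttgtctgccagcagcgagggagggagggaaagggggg
Col1a2: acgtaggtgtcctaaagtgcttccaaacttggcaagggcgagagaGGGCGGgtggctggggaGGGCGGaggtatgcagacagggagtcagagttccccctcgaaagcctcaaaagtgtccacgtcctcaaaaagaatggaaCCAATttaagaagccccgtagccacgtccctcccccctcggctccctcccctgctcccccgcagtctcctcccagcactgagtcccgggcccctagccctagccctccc
None of the motifs stood in all 3 stretches. Col3a1 held a TATA box 117 bases before its start, Col5a1 held GC boxes 73 and 205 bases before it, and Col1a2 held a CCAAT box at 109 and GC boxes at 188 and 205. Windows of 300 bases, reaching 50 past the start, were found for 34 of the 42 chains. Among these 34, which had 37 windows, 12 held a CCAAT box in at least 1 window, 21 a GC box and 5 a TATA box. Of the 32851 windows of all genes, 37.4%, 35.7% and 13.6% held them, a share of windows and not of genes. Of the 10 fallen chains with a window, 5, 8 and 1 held them, with a GC box shared by Col4a1 and Col4a2 counted for both. A match is a string of letters and not a shown binding site.

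Col1a1, which encodes the major chain of type I collagen, read 14.01 and 13.79 in PBS and Tbx6 hearts at day 7 and 10.12 and 10.54 at day 30. It fell by 3.57 (SE 0.27; adjusted p = 9.69e-05, limma with Benjamini-Hochberg), which is 11.9-fold (95% confidence interval 7.81 to 18.1). Its partner in the same trimer, Col1a2, read 13.95 and 13.75 at day 7 and 10.75 and 10.98 at day 30. Both day 30 arrays lay more than 2-fold under both day 7 arrays for either chain, whichever the injection. Col1a2 fell by 2.98 (SE 0.25; limma adjusted p = 0.000153), or 7.91-fold (5.30 to 11.8). The fall of Col1a1 exceeded that of Col1a2 by 0.69 in PBS hearts and 0.48 in Tbx6 hearts, a difference between probe sets that was not tested.

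Col3a1, the chain of type III collagen, which forms thin, pliable fibrils with type I, read 17.20 and 17.19 at day 7 and 13.91 and 13.84 at day 30. The Tbx6 array differed from the PBS array by -0.01 at day 7 and -0.07 at day 30, while day 30 differed from day 7 by -3.29 in PBS and -3.35 in Tbx6 hearts. The fitted fall was 3.32 (SE 0.24; limma adjusted p = 8.97e-05). Col5a1, a chain of type V collagen, which starts and limits the width of type I fibrils, read 8.65 and 8.43 at day 7 and 5.27 and 5.53 at day 30. Both day 30 readings were at background, so its fall has a bound of -2.61, beside a fitted value of -3.14 (limma adjusted p = 0.000122). Ranked by their fitted fall among the 9753 genes tested, Col1a1 stood at place 26, Col3a1 at 36 and Col1a2 at 53. The place of Col5a1 cannot be read, since its fall is a bound. The other places are approximate, because genes ranked near them, such as Mki67 at 9 and Lox at 28, also have falls that are bounds.

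Col5a2, a further type V chain and the immediate neighbour of Col3a1 in the RefSeq gene order, stood just above background at day 7 with 6.21 and 6.22. At day 30 it read 3.84 and 4.02, both at background. It did not pass the filter on low values and has no test, and the bound of its difference is -0.28. Col11a2, a chain of the cartilage collagen type XI, read 6.10, 6.43, 6.21 and 5.98 in the order PBS and Tbx6 at day 7, PBS and Tbx6 at day 30, with a day difference of -0.17 (95% confidence interval -0.76 to 0.43). The other 5 fibrillar chains, Col2a1, Col5a3, Col11a1, Col24a1 and Col27a1, were at background on all 4 arrays. The median of the 5 tested fibrillar chains was -3.14, which is the fitted value of Col5a1, and -2.98 with readings at background raised to that level. Without the filter it was -0.91, the value of Col24a1, which cannot be read as a difference since that chain was at background throughout.

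**Figure D2:**
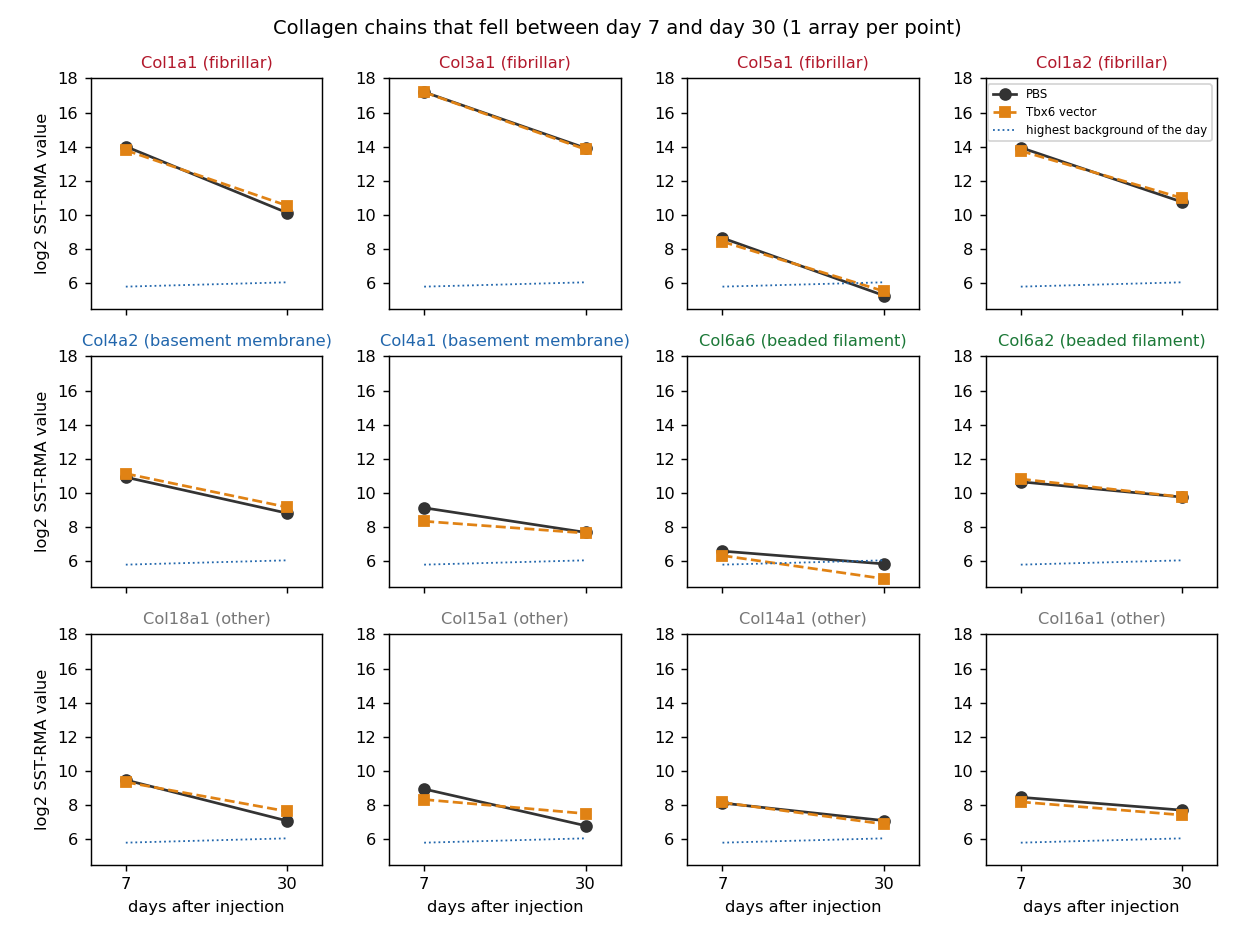
Level (log2) of the 12 collagen chains that fell, by days after injection, with 1 point per array, black for PBS and orange for Tbx6 hearts, and a dotted line at the higher background of each day. In every panel both day 30 points lie below both day 7 points, and those of Col5a1 and Col6a6 lie under the dotted line.

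Among the type IV chains, the pair that forms the common network of vessel and muscle basement membranes fell, and the minor chains did not pass the test. Col4a2 read 10.92 and 11.13 at day 7 and 8.81 and 9.16 at day 30, a fall of 2.04 (SE 0.24; limma adjusted p = 0.000708) or 4.11-fold (2.80 to 6.04). Col4a1, its partner in that network, read 9.13 and 8.34 at day 7 and 7.69 and 7.65 at day 30. The PBS array at day 7 was the highest of the 4 for Col4a1, and the fall was 1.44 in PBS and 0.69 in Tbx6 hearts. The fitted fall of Col4a1 was 1.07 (SE 0.27; limma adjusted p = 0.0223), and its adjusted p was 0.123 without PBS at day 7 (difference -0.67), 0.107 without PBS at day 30 and 0.122 without Tbx6 at day 30. The difference in day change between the pair, Col4a1 less Col4a2, was 0.97 and was not tested.

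Col4a1 and Col4a2 lie on opposite strands with their annotated starts close together. Which start comes first was not checked, so the stretch from 1 start to the other may lie before both or after both. Its 22 bases, both start bases included, are shown because the 300-base windows of both genes hold it (RefSeq, GRCm38.p6, chr8:11312805-11312826, plus strand, with the GC box in capitals).
Col4a1 and Col4a2: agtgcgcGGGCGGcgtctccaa
Both genes also held a CCAAT box in their windows.

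Col4a3, a chain of the collagen network of kidney and lung membranes, read 6.89 and 7.19 at day 7 and 7.07 and 7.49 at day 30. These arrays overlapped between days, with a difference of 0.24 (95% confidence interval -0.31 to 0.79; limma adjusted p = 0.498). Its neighbour Col4a4 was at background on all 4 arrays, so its difference cannot be read. It nevertheless passed the filter on low values and counts among the tested chains. Col4a5, on the X chromosome, read 5.93 and 5.95 at day 7, just above background, and 5.67 and 5.90 at day 30, the first of these at background. Its fitted difference of -0.15 (-0.71 to 0.41) did not pass and became 0.039 with that reading raised to the background. Col4a6 was at background throughout. The median of the 5 tested type IV chains was -0.15, and it was -0.61 over chains above background on at least 2 arrays, -0.03 without PBS at day 30, -0.27 without Tbx6 at day 30 and 0.039 with readings at background raised to that level.

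Type VI collagen is built from the products of Col6a1 and Col6a2 and a longer chain that varies. Of the 4 type VI chains tested 2 fell, each by a smaller fitted value than Col1a1 or Col1a2. Col6a2 read 10.65 and 10.82 at day 7 and 9.75 and 9.76 at day 30, with the injections close together at either day. It fell by 0.98 (SE 0.24; limma adjusted p = 0.0201), or 1.97-fold (1.34 to 2.89). Its adjusted p was 0.0524 without Tbx6 at day 7, 0.0705 without PBS at day 30 and 0.0723 without Tbx6 at day 30. Col6a1, which adjoins Col6a2 in the genome, read 8.78 and 8.37 at day 7 and 8.31 and 8.18 at day 30, a difference of -0.33 (95% confidence interval -0.90 to 0.23) that did not pass. Col6a3, the most common longer chain, read 8.78 and 8.22 at day 7 and 7.95 and 7.56 at day 30. Its arrays did not overlap between days, and its difference of -0.74 (-1.30 to -0.19) missed the threshold (limma adjusted p = 0.0539).

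Col6a6, an alternative longer chain, read 6.59 and 6.33 at day 7 and 5.84 and 4.97 at day 30, the latter both at background. It fell (limma adjusted p = 0.0204), with a bound of -0.53 beside a fitted value of -1.05. With readings at background raised to that level the adjusted p was 0.107, and it was 0.12 without PBS at day 7, 0.0561 without Tbx6 at day 7 and 0.216 without Tbx6 at day 30 (difference -0.62). Col6a4 and Col6a5, which sit beside Col6a6, were at background on all arrays. The median of the 4 tested type VI chains was -0.86, and -0.54 with the 2 chains at background included.

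Of the 19 other collagens 11 were tested and 4 fell. The multiplexins, collagens of the basement membrane zone that carry heparan or chondroitin sulfate and release endostatin-like fragments, both fell. Col18a1 read 9.47 and 9.34 at day 7 and 7.07 and 7.63 at day 30, a fall of 2.06 (SE 0.27; limma adjusted p = 0.00111) or 4.16-fold (2.72 to 6.37). Col15a1 read 8.94 and 8.32 at day 7 and 6.79 and 7.50 at day 30. The 2 day 7 arrays of Col15a1 lay above both day 30 arrays, but the fall was 2.15 in PBS and 0.83 in Tbx6 hearts. The fitted fall of 1.49 (SE 0.33; limma adjusted p = 0.013) had an adjusted p of 0.0765 without PBS at day 30. With both multiplexins counted among the basement membrane chains, the median of that class was -1.07.

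The fibril-associated collagens sit on the surface of fibrils. Col14a1, which binds fibrils of type I, read 8.12 and 8.15 at day 7 and 7.09 and 6.89 at day 30. It fell by 1.15 (SE 0.25; limma adjusted p = 0.0109), and its adjusted p was 0.0593 without Tbx6 at day 30. Col16a1 read 8.46 and 8.19 at day 7 and 7.70 and 7.42 at day 30, a fall of 0.76 (limma adjusted p = 0.0486). That call was the one nearest to the threshold: the adjusted p was 0.0892 without the filter on low values, 0.0559 after quantile normalization and 0.0595 to 0.217 with any 1 array left out. Col20a1 had a difference of -0.30, and Col9a3 was above background only on the Tbx6 array at day 7, so that its difference cannot be read; neither passed.

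The short-chain network collagens of type VIII, found in vessel walls and under endothelium, had differences of opposite sign, and neither passed. Col8a2 read 7.39 and 7.22 at day 7 and 6.74 and 6.68 at day 30, a difference of -0.60 (95% confidence interval -1.15 to -0.04; limma adjusted p = 0.104). Col8a1 read 5.41 and 5.04 at day 7, at background, and 5.89 and 5.98 at day 30, where only the Tbx6 array lay above background. Its difference has a bound of 0.23 beside a fitted value of 0.71 (limma adjusted p = 0.071). The transmembrane chain Col23a1 was at background at day 30, with a bound of -0.29, and Col13a1 was above background only on the Tbx6 array at day 7, which leaves no difference over both injections to read; neither passed. Col28a1, a chain outside these classes, had a difference of 0.22 and did not pass. The median of the 11 was -0.60, and -0.30 with readings at background raised to that level. Another 8 of the 19 were at background on all 4 arrays.

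Genes that make, link, bind and break down collagen were read from 7 lists. Of 83 listed genes 62 were tested, 26 fell and 10 rose, with a median day difference of -0.59. Fewer genes were called as risen whichever array was left out, and the share of all genes called in those fits is not given here. Each list below is described by its counts, to be read against the 12.1% of all genes that fell and the 14.2% that rose.

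Of 20 tested chaperones and modifying enzymes, 5 fell and 3 rose, with a median of -0.20. Crtap, a part of the prolyl 3-hydroxylation complex, read 13.65 and 13.56 at day 7 and 11.49 and 11.58 at day 30 and fell by 2.07 (limma adjusted p = 0.000663). Creb3l1, a transcription factor of the endoplasmic reticulum membrane that drives procollagen genes, fell with a bound of -1.24, its day 30 readings of 5.00 and 5.26 being at background. P4ha2 and P4ha1, catalytic subunits of prolyl 4-hydroxylase, moved the other way: P4ha2 rose by 1.12 (7.30 and 7.77 to 8.61 and 8.70) and P4ha1 by 1.05 (9.11 and 9.19 to 9.93 and 10.46). P4hb, the shared subunit of that enzyme, fell by 0.94. Mia2, which takes part in loading procollagen into transport carriers, rose by 1.71. Serpinh1, the collagen-specific chaperone, fell by 0.79 (limma adjusted p = 0.0488).

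Of the genes that act on secreted procollagen, Bmp1, which removes the C-propeptide of fibrillar procollagens, fell by 1.56, and Pcolce2, an enhancer of that cleavage, rose by 1.08; the other 3 of the 5 tested did not pass. Among 4 tested crosslinking enzymes, Lox read 10.23 and 9.53 at day 7 and 5.96 and 6.73 at day 30. Its PBS reading at day 30 was at background, so its fall has a bound of -3.49 (limma adjusted p = 0.000306). Loxl1, a relative of Lox that also acts on elastin, fell by 2.26, and the other 2 did not pass.

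Of 11 tested proteoglycans and glycoproteins that bind fibrils, 4 fell and 3 rose. Postn, a matricellular protein of the developing and injured heart, read 15.55 and 14.95 at day 7 and 10.34 and 11.03 at day 30, a fall of 4.57 (SE 0.33; limma adjusted p = 8.47e-05). Thbs2, a matricellular protein that affects fibril shape, fell by 2.66. Prelp, a leucine-rich proteoglycan of the matrix, rose by 1.99, from 9.28 and 9.45 to 11.47 and 11.24. Comp passed the test upward with 1.07, but all 4 of its readings were at background. This list therefore held genes that moved against the collagen chains as well as with them.

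Of 7 tested genes of collagen breakdown, 3 fell and 2 rose. Mmp14, a membrane-anchored collagenase, read 10.56 and 9.85 at day 7 and 6.43 and 6.55 at day 30 and fell by 3.71. Mmp16, a relative of it, fell with a bound of -1.37. Of the inhibitors of these proteases 2 rose: Timp4, abundant in heart, read 7.65 and 7.37 at day 7 and 10.19 and 9.99 at day 30 and rose by 2.58, and Timp3 rose by 2.09. Timp2, a further inhibitor, read 12.92 and 12.95 at day 7 and 12.28 and 12.40 at day 30, a difference of -0.60 that did not pass (limma adjusted p = 0.103). Timp1 and 5 proteases, among them Mmp3, Mmp9 and Mmp13, were at background on all arrays.

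Of 5 tested collagen receptors, Itgb1, the β subunit of the collagen-binding integrins, fell by 1.03 and Itga2, an α subunit, fell with a bound of -0.49. Adgrg1, an adhesion receptor for type III collagen, rose by 1.17. Of 10 tested partners of type IV collagen in the basement membrane, 9 fell, with a median of -1.48. Nid2, which links laminin to the type IV network, fell by 1.93 and Lamb1, a laminin chain, by 1.81. Lamb2, a laminin chain of mature membranes, was the member that did not pass, with 0.63 (limma adjusted p = 0.0916).

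**Figure D3:**
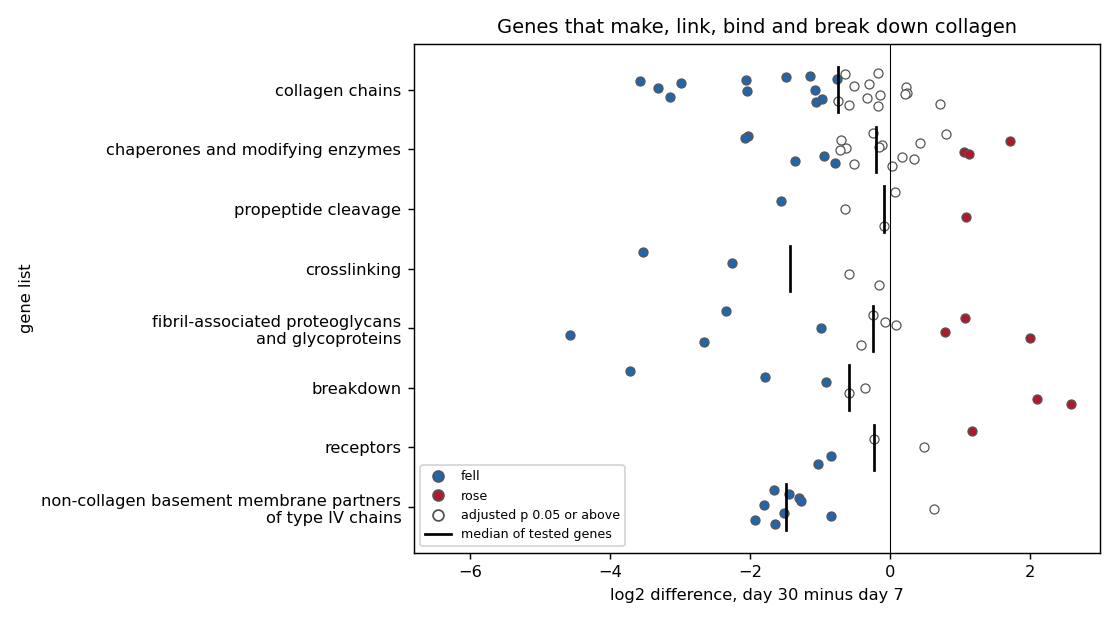
Day difference (day 30 minus day 7, log2) of the tested collagen chains and of the tested genes of 7 lists, with 1 point per gene, colour for genes that fell or rose at a limma adjusted p under 0.05, and a bar for the list's median. Among the basement membrane partners 9 of 10 points are coloured as fallen, while chaperones, fibril-associated and breakdown genes lie on both sides of 0; differences are not corrected for readings at background.

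Markers of the cell types a heart sample can hold are given for the whole lists, and their part in the collagen differences was not tested. Of 7 cardiac fibroblast markers 3 fell and 2 rose. Dcn read within 18.34 and 18.47 on all arrays. That level lies toward the highest value of the table, 19.9, and compression there was not tested, so its narrow range gives no sign of stability. Tcf21 and Dpt fell by 1.72 and 1.45, Gsn and Pi16 rose by 4.11 and 1.31, and the median day difference of the list was -0.23. Its summed level, in which bright probe sets weigh most, was 18.51 and 18.59 at day 7 and 19.07 and 18.99 at day 30; Gsn read 13.47 and 13.43 at day 7 and 17.67 and 17.46 at day 30. The 6 cardiomyocyte markers had 0 calls in the limma test and summed to 22.00 to 22.06, but this gives no sign of stability. Pln stood at 19.83 on all 4 arrays, and Myl2, Myh6 and Tnnt2 also lay near the highest value of the table, 19.9, where differences are compressed. Cdh5 and Kdr fell among 6 endothelial markers, whose summed level was 17.90 and 17.84 at day 7 and 17.12 and 17.31 at day 30. Of 6 smooth muscle and pericyte markers 0 passed the limma test, and of 3 tested macrophage markers Csf1r and C1qa rose. Postn and Tnc of the activated fibroblast list fell, Tnc with a bound of -2.47, and so did Mki67 (bound -4.58) and Top2a (-1.76) of the proliferation list.

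Markers of tissue from outside the myocardium also differed between arrays. All 3 bone markers and 5 of 6 cartilage markers were at background on every array; the remaining cartilage marker, Sox9, fell with a bound of -1.02. In the Schwann cell list Cdh19 rose with a bound of 1.92. The adipocyte list summed to 12.08 and 8.50 in PBS and Tbx6 hearts at day 7 and 8.34 and 10.58 at day 30, with Ucp1, the uncoupling protein of brown fat, at 11.92, 7.60, 5.69 and 8.34. The airway marker Scgb1a1 read 12.89 in PBS at day 7 and 3.25, 2.94 and 4.43 on the others, the latter at background. Of 2 tested mesothelial and epicardial markers 0 passed the limma test, and that list summed to 10.72, 10.66, 9.98 and 10.60.

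Between injections, no collagen chain passed the test. Over both days, 0 of 25 chains had an adjusted p under 0.05, where 0.0% of all genes did, and 0 had an unadjusted p under 0.05, where 4.32% of all genes did (limma). The lowest unadjusted p was 0.062, for Col6a6. For Col3a1 the Tbx6 minus PBS difference over both days was -0.04 (95% confidence interval -0.60 to 0.51), and for Col1a1 it was 0.10 (-0.51 to 0.71). For Col6a3 the Tbx6 array was lower at either day, by 0.56 and 0.39, with an interval of -1.03 to 0.08.

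Within a day there was 1 array per injection, so these differences lack a replicate check and carry no p-value. At day 7, 2 of the 25 chains differed by at least 1.5-fold, against 15.6% of all genes tested; both were lower with Tbx6, against 8.41% of all genes lower and 7.23% higher. These were Col4a1, at 9.13 in PBS and 8.34 in Tbx6 hearts, and Col15a1, at 8.94 and 8.32. At day 30, 2 chains differed by that rule, against 13.2% of all genes; 1 was higher and 1 lower, against 7.13% and 6.06%. Col15a1 was the higher one, at 6.79 in PBS and 7.50 in Tbx6 hearts, and Col6a6 the lower one, with both readings at background. The median difference over the tested chains was -0.11 at day 7 and 0.01 at day 30, against -0.02 and 0.01 for all genes. The sign was the same at both days for 14 of the 25 chains, and for 4798 of the 9753 genes tested. At a 2-fold rule 0 chains differed at either day, and the share of all genes at that rule is not given here. Some other matrix genes were also lower with Tbx6 at day 7 and higher at day 30. Among them were Postn (-0.60 and 0.69) and Lox (-0.70 and a bound of 0.68), while Col3a1 and Col6a3 were lower at both days. Of the 5 tested fibrillar chains, 1 had the same sign at both days. The array pairs that differ in Col15a1 also differed in the adipocyte list, in the same direction at either day. The summed macrophage list also went lower with Tbx6 at day 7 and higher at day 30. The endothelial and mesothelial lists did too, but their day 7 sums lay close together (17.90 and 17.84, 10.72 and 10.66 in PBS and Tbx6 hearts). The airway list was lower at day 7, and its day 30 readings were at background, so no direction can be read there. The other marker lists did not go in these directions at both days. The part of any tissue in the difference was not tested.

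**Figure D4:**
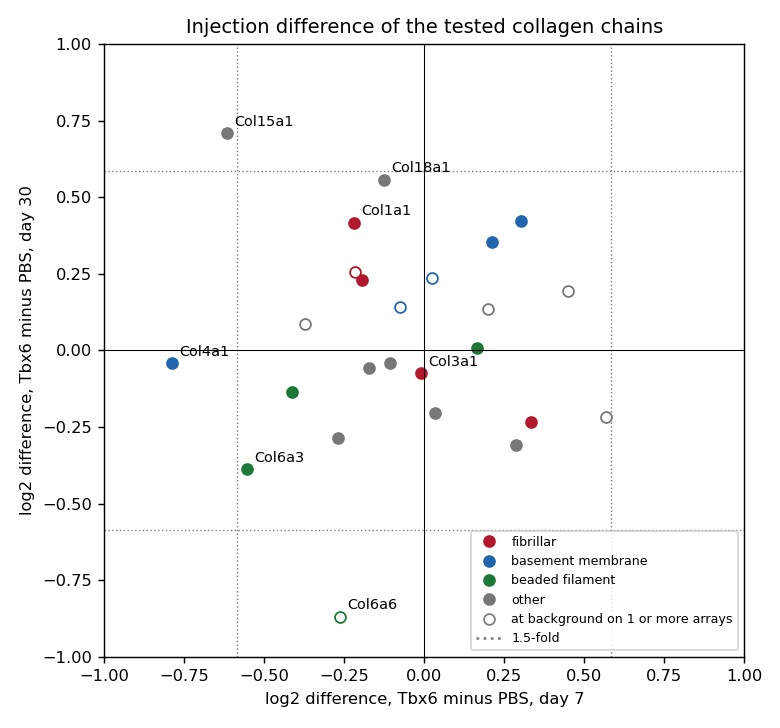
Tbx6 minus PBS difference (log2, single arrays) of the 25 tested collagen chains at day 7 and at day 30, with dotted lines at 1.5-fold and open circles for chains at background on 1 or more arrays. Most points lie inside the lines; Col4a1 and Col15a1 lie below them at day 7, and at day 30 Col15a1 lies above and Col6a6, whose readings were at background, below.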

How the data were processed

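RNA from whole hearts was labelled with biotin and read on 4 mouse Clariom S arrays. Per the labels, the authors normalized the arrays by SST-RMA in Affymetrix Expression Console 1.4. The deposited values were taken as log2 levels; base 2 is not stated and was read from their range, and the highest value was 19.9. Names of probe sets came from the platform annotation, with the highest probe set kept for 55 genes with several. The RefSeq table gave names and neighbours.

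Day and injection were fitted as additive terms with limma 3.58.1 (R 4.3.3; lmFit and eBayes, 7.46 prior degrees of freedom) on 9753 genes with a mean no lower than the median over all genes (5.30), with Benjamini-Hochberg adjustment and a threshold of 0.05. Gene counts by size used 1.5-fold. On simulated data, day differences of 1 and 2 log2 units were called for 25% and 100% of 100 genes each, and 15 of 9553 unchanged genes were called. The simulated spread was drawn from the fitted model itself, and few genes were changed, while 26.3% of tested genes were called in the data. The simulation therefore does not give the power or the error rate of the test in these data. Where readings lay at background, bounds were taken after raising them to the highest of 23 background probe sets. The number of arrays, readings at background and readings near the highest value limit the precision; arrays have no depth. Alternatives were no filter, a filter on background, quantile normalization, averaged probe sets, a robust trend, raised background readings, day alone, each array left out and another class for Col15a1 and Col18a1. Every chain above background could be named, with up to 4 genes of each pathway list and 3 of each marker list, chosen by size past the test or by written order; others were chosen after their values were seen. The members and lists were chosen with earlier results of these data known. Fkbp10, Plod3, Adamts2, Loxl2, Itga1, Itga10 and the markers Pdgfra, Cd68, Foxj1 and Ccnb1 were not analysed here. Dcn, Postn and Acta2 stand in 2 lists.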

Additional observations from a re-analysis of the deposited data

Results flagged for a closer look

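Col15a1 differed between injections in opposite directions at the 2 days. The Tbx6 minus PBS difference was -0.62 at day 7 and 0.71 at day 30 (log2, 1 array per group). The difference between days was not tested, since the additive model has no replicate for it.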

How the results depend on the processing

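No paired analysis was possible because each group held 1 array. The count of fallen chains ran from 11 to 14 in the alternatives with all arrays. It was lower than in the main fit with any 1 array left out, and the share of all genes called there is not given here. Col1a1, Col1a2, Col3a1, Col5a1, Col4a2 and Col18a1 passed the test in all 11 alternatives run for them. The count of chains that rose and of chains past the test for injection was 0 in each alternative run (limma). Among the pathway genes, 23 to 27 fell and 9 to 11 rose with all arrays, and 19 to 23 fell and 5 to 8 rose with 1 left out (5 without PBS at day 7 or Tbx6 at day 30, 6 without PBS at day 30). Chains at least 1.5-fold apart between injections numbered 1 at day 7 after quantile normalization, 1 at day 30 with background readings raised, and 0 at either day at 2-fold. The class median was -0.91 for fibrillar, -0.54 for beaded filament and -0.51 for other chains without the filter; these values include 5, 2 and 8 chains at background on all arrays and cannot be read as changes. With the filter on background it was -0.61 for basement membrane and -0.68 for other chains. With background readings raised it turned to 0.039 for basement membrane and was -0.63 for beaded filament and -0.30 for other chains. With Col15a1 and Col18a1 moved it was -1.07 for basement membrane and -0.52 for other chains. With 1 array left out it ran from -0.96 to -0.58 for beaded filament (-0.69 without PBS at day 7) and from -0.62 to -0.42 for other chains. Chains that turned direction, all without a call, were Col4a5 (0.039), Col9a3 (0.13) and Col13a1 (0.022) with background readings raised, and Col9a3 (0.11) without Tbx6 at day 7. Causes were not tested. Low signal limits the 17 chains at background on all arrays, for which no difference can be read. Of these, Col4a4 was among the tested chains.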
